A study of Mus musculus with 8 samples.

Results

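The imprinted Dlk1-Dio3 cluster is a group of miRNA genes on mouse chromosome 12, and 45 of its mature miRNAs had probes on the array, out of 1881 mouse miRNAs in all. They were chosen by name, as mature miRNAs of this domain. The array data came from a study of miRNAs in sweat gland development, which compared embryonic footpad skin of wild-type mice with footpad skin of mice carrying a conditional knockout (cKO) of Dicer. There were 4 groups of 2 arrays each: wild type and Dicer cKO at E16.5, and wild type and Dicer cKO at E17.5, both stages being days of embryonic development. The strain background of all 8 samples was given as C57BL6. Each sample was a pool of footpads from 3 to 5 embryos, so the p-values rest on how pools differ, and single embryos were not measured. The labels name neither the Cre driver nor the cells in which Dicer was deleted, and the array holds no probe for Dicer mRNA, so the extent of the deletion is not known from these data. All arrays lay on 1 slide, with each group in a column of its own, so that column and group cannot be told apart, and with each replicate number in a row of its own.

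Imprinted genes are expressed from only one of the parental chromosomes. In the Dlk1-Dio3 domain the long noncoding RNA genes Meg3, Rian and Mirg and the antisense transcript of Rtl1 are expressed from the maternally inherited chromosome, and many miRNA hairpins are cut out of these transcripts. Dicer makes the final cut that turns such a hairpin into mature miRNAs, one from each arm (named 5p and 3p). The miRNAs antisense to Rtl1 match its paternally expressed mRNA perfectly and are known for cleaving it, while the hairpins from miR-379 to miR-410 form one of the longest miRNA arrays of mammals, known from brain, placenta and embryonic mesodermal tissues.

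The members came from 34 hairpins, all on the plus strand. In RefSeq's GRCm38.p6 annotation 8 of the 34 lay within the span of Rtl1, 2 within Rian and 6 within Mirg, and the other 18 lay between Rian and Mirg. Below, these last 24 hairpins are called the Mirg side. In the scanner files' own annotation, which uses the mm9 build, the probe of mmu-miR-127-3p lies at chr12:110831103-110831119, that of mmu-miR-431-5p at chr12:110828676-110828689 and that of mmu-miR-433-3p at chr12:110830000-110830012. On the Mirg side the probe of mmu-miR-329-3p lies at chr12:110951754-110951772, that of mmu-miR-494-3p at chr12:110953586-110953598 and that of mmu-miR-376c-3p at chr12:110960981-110961000.

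RefSeq held a mature sequence for 43 of the 45 members, all but miR-376c-3p and miR-487b-3p. A miRNA recognises its targets mainly through its seed, bases 2 to 8 from the 5′ end, which is in capitals below. The first 6 sequences are those of members with large fitted increases in cKO skin or, for miR-127-3p, of the best known Rtl1-antisense miRNA.
miR-329-3p: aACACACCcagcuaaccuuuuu
miR-379-3p: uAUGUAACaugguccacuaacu
miR-323-3p: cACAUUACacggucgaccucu
miR-540-5p: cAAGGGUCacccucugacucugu
miR-134-5p: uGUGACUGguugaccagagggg
miR-127-3p: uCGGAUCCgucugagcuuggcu
The next 3 are members that went against the rest of the cluster at one of the stages with the main scaling.
miR-431-5p: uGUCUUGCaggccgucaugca
miR-433-3p: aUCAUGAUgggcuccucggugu
miR-494-3p: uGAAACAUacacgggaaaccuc
The 43 sequences had 43 distinct seeds, so no pair among these 43 members shared one. Pairs with miR-376c-3p or miR-487b-3p could not be compared. In 5 pairs the seeds differed at a single position, and 4 of these pairs are shown because a probe for one member could in principle bind the other.
miR-300-3p: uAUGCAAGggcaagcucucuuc
miR-381-3p: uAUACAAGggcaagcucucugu
miR-376a-3p: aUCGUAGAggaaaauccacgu
miR-376b-3p: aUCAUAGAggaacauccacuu
miR-154-3p: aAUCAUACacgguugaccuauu
miR-369-3p: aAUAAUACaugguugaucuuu
miR-379-5p: uGGUAGACuauggaacguagg
miR-411-5p: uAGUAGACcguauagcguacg

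Counting from the 5′ end, miR-300-3p and miR-381-3p differed in the seed by G4A and were identical at 86.4% of 22 positions. For miR-376a-3p and miR-376b-3p the seed difference was also G4A, with 85.7% of 21 positions identical. For miR-154-3p and miR-369-3p it was C4A, with 81.0% of 21 positions identical, and for miR-379-5p and miR-411-5p G2A, with 66.7%. The remaining pair was miR-379-3p and miR-410-3p (G4A), with 42.9% identical. Binding of a probe to the neighbouring family member was not tested.

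An miRNA was tested if at least 1 of its probes was well above background on both arrays of at least 1 group, which held for 385 miRNAs and for 41 of the 45 members. Of the members, 37 were detected on all 8 arrays and 3 on none (miR-540-3p, miR-667-3p and miR-668-3p). miR-369-3p was detected on 3 arrays, never on both of a group, and was not tested. Signals are fluorescence intensities, and levels below are log2 of the signal relative to the upper quartile (75th percentile) over the 474 probes that every array detected, which reads 0. Signals under a floor of -4.24 were raised to it. Probes differ in brightness, so a level is compared between arrays and never between miRNAs. The wild-type and cKO arrays of replicate 2 at E16.5 detected fewest miRNAs, 279 and 281 against 352 to 384 on the other 6 arrays. In all 4 groups replicate 2 had fewer detected miRNAs and a larger share of spots with an outlier mark (3.73% to 6.02%) than replicate 1 (2.84% to 3.57%). At E16.5 the correlations of replicate 2 with replicate 1 over the tested miRNAs were 0.997 and 0.998.

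The miRNA content of the skin itself differed between genotypes. All 10 miRNAs of a list of skin epithelium markers (the miR-200 family, miR-203, miR-205 and the miR-183 family) were lower in cKO, under each of 6 ways of scaling the arrays. Their summed level was 27.2 to 32.1 times the 75th percentile in wild type and 2.84 to 4.31 in cKO. Fewer cells of a type and less of an miRNA per cell cannot be told apart in such bulk samples. Of 9 markers of dermal mesenchyme 7 were higher in cKO with the main scaling, as were 5 of 5 for skeletal muscle and 2 of 2 for endothelium. For blood 3 of 5 were higher, for nerve and glia 2 of 3 tested, and for cartilage 1 of 4. Among all 385 tested miRNAs 46% were higher. With the positive control probes as the scale none of these lists had a higher member. Lower were 3 markers of mesenchyme, 1 of skeletal muscle, 0 of endothelium, and 1 each of blood, nerve and glia, and cartilage. Among all 385 tested miRNAs 8 were then higher and 169 lower.

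With the main scaling the Dlk1-Dio3 miRNAs rose as a group in cKO footpad skin, but modestly. Over both stages 37 of the 41 tested members were higher in cKO and 0 were lower (limma, adjusted p under 0.05), beside 46% higher and 14.5% lower among all 385 tested miRNAs. The median change of the members was 0.31 on the log2 scale, and that of all tested miRNAs was 0.17, so that the members' median lay 0.15 above it. Above the median of all tested miRNAs were 35 of the 41. Of the 261 miRNAs detected on all arrays 143 were higher, with a median of 0.19, as were 34 of the 37 members among them. The members' median then lay 0.12 above, with 30 of the 37 above it. The changes of the 37 ranged from 0.13 to 0.73, with 3 members at 0.5 or more and 30 between 0.2 and 0.5. In 32 of the 41 every cKO array lay above every wild-type array, which held for 25.5% of all tested miRNAs. Within each stage taken alone the arrays of the genotypes did not overlap, with cKO higher at both stages, in 34 members and in 39.2% of all tested miRNAs.

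How many members were called depended on the scale set between arrays. The count of higher members was 37 with the main scaling, 34 after quantile normalization and 33 when arrays were scaled to the median of the detected probes. Of all 385 tested miRNAs 177, 151 and 129 were higher. The count of higher members was 0 when arrays were scaled to the 75th percentile of all probes, left unscaled or scaled to the positive control probes. Of all tested miRNAs 6, 6 and 8 were then higher. With the last of these scalings 8 members were lower, beside 169 of all 385 tested miRNAs. The median change of all tested miRNAs moved with the scale too, from 0.17 down to -0.15. The position of the members relative to it moved less. Their median lay 0.10 to 0.20 above that of all tested miRNAs under the 6 scalings. Of the 41, 33 to 37 lay above it. Every scaling but quantile normalization divides an array by a single number and so shifts all changes of values above the floor alike. Among those scalings this distance can move mainly through values raised to the floor, so they are not independent checks of it. Under every scaling 14 members kept a change above 0. These were miR-134-5p, both arms of miR-154, miR-323-3p, miR-329-3p, both arms of miR-376b, miR-376c-3p, both arms of miR-379, miR-409-5p, miR-411-5p, miR-540-5p and miR-543-3p. They were the 14 members with the largest increase under the main scaling, so the list largely restates that ranking. Called higher under all 6 scalings were 0 members.

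**Figure D1:**
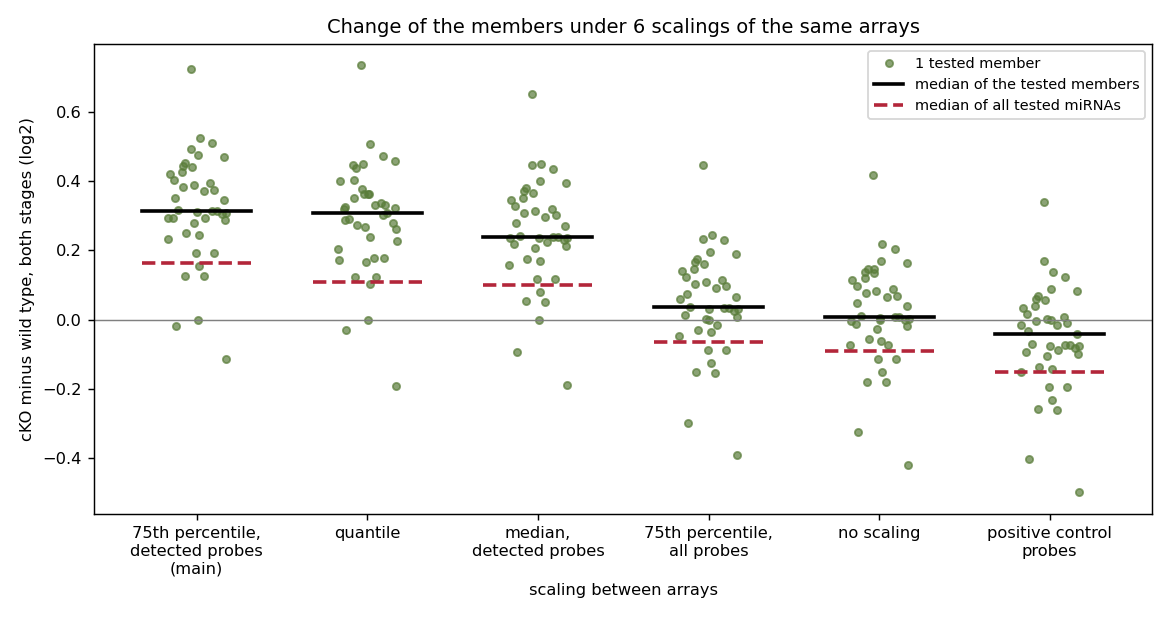
Change of each of the 41 tested members in cKO against wild type over both stages (log2, y axis) under 6 scalings of the same 8 arrays (x axis). Each point is 1 member, the black line is the members' median and the dashed red line the median of all 385 tested miRNAs. With the main scaling the medians are 0.31 and 0.17, and with the positive control probes they are -0.04 and -0.15. The members' median lies above the other in each column, while the sign of the change depends on the scale. Every scaling but quantile normalization divides an array by a single number, so among those the distance between the medians moves mainly through values at the floor.

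The largest increase was that of mmu-miR-376c-3p, a member of the miR-376 family, whose hairpins are known for adenosine-to-inosine editing in the seed. Its log2 level was -2.23 and -2.36 in wild type against -1.37 and -1.52 in cKO at E16.5, and -2.37 and -2.29 in wild type against -1.51 and -1.95 in cKO at E17.5. All 4 cKO arrays lay above all 4 wild-type arrays, and the cKO pools at E17.5 were the most spread. The fitted change over both stages was 0.73 ± 0.11 (SE, n = 4 arrays per genotype), or 1.65-fold, with an adjusted p of 0.0035. Its change stayed above 0 under all 6 scalings, from 0.34 to 0.74.

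The other miR-376 members moved less. miR-376b-3p read 0.72 and 0.76 in wild type against 1.05 and 1.07 in cKO at E16.5, and 0.83 and 0.76 against 1.25 and 1.26 at E17.5. Its arrays did not overlap between genotypes, with a change of 0.39 ± 0.02 (SE, n = 4 per genotype; adjusted p 0.00016). miR-376a-3p, which differs from it by one seed base, read 0.66 and 0.63 in wild type against 0.68 and 0.55 in cKO at E16.5, and 0.65 and 0.63 against 0.95 and 0.89 at E17.5. Its genotypes overlapped at E16.5 and were apart at E17.5. Its change over both stages was 0.13 ± 0.03 (adjusted p 0.022), below the median of all tested miRNAs, and its sign turned to negative with 3 of the scalings.

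miR-329-3p, a miRNA of the Mirg side known for activity-dependent expression in neurons, had the second largest increase. It read -0.96 and -1.14 in wild type against -0.74 and -0.84 in cKO at E16.5, and -1.40 and -1.27 against -0.47 and -0.62 at E17.5. The gap between genotypes was wide at E17.5 and narrow at E16.5. Over both stages the change was 0.53 ± 0.07, or 1.44-fold (adjusted p 0.0019). A little further along, miR-543-3p read -2.49 and -2.50 against -2.22 and -2.33 at E16.5 and -2.85 and -2.85 against -2.21 and -2.24 at E17.5. Here the cKO level was alike at both stages and the wild-type level was lower at E17.5.

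The hairpin miR-379 opens the Mirg side. miR-379-5p read 0.19 and 0.08 in wild type against 0.56 and 0.57 in cKO at E16.5, and 0.28 and 0.33 against 0.76 and 0.69 at E17.5. miR-379-3p, its partner arm, read -2.11 and -2.17 against -1.64 and -1.68 at E16.5, and -2.07 and -2.09 against -1.49 and -1.59 at E17.5. For both arms the cKO arrays were higher at each stage by more than the replicates differed. The changes over both stages were 0.43 ± 0.03 for the 5p arm and 0.51 ± 0.04 for the 3p arm (adjusted p 0.00034 and 0.00028). miR-411-5p, whose hairpin follows miR-379, rose by 0.45 ± 0.02 (adjusted p 7.0e-05).

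miR-134-5p, known for limiting dendritic spine growth through Limk1 in neurons, read -2.52 and -2.62 in wild type against -2.13 and -2.07 in cKO at E16.5. At E17.5 it read -2.71 and -2.68 in wild type against -2.22 and -2.23 in cKO. Its change was close to the same at both stages, 0.47 ± 0.05 and 0.47 ± 0.05. miR-154-5p, of the Mirg transcript, read -0.66 and -0.65 against -0.23 and -0.26 at E16.5 and -0.46 and -0.51 against 0.04 and -0.01 at E17.5. Its change over both stages was 0.45 ± 0.02 (adjusted p 7.5e-05), with no overlap between genotypes.

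Of the other well-studied members of the Mirg side, miR-381-3p rose by 0.38 ± 0.05, miR-495-3p by 0.31 ± 0.03 and miR-410-3p, the last hairpin of the array, by 0.15 ± 0.03 with the main scaling. miR-410-3p lay just under the median of all tested miRNAs and was below 0 with 3 other scalings. Of the 27 tested Mirg-side members 26 rose with the main scaling, with a median of 0.38, and miR-494-3p did not pass. Among all tested miRNAs 46% rose, with a median of 0.17.

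miR-323-3p, miR-539-5p and miR-665-3p were dim and detected on 6 of 8 arrays. miR-323-3p lay at the floor on 3 of the 4 wild-type arrays, with -4.17 on the other, and read -3.69, -3.75, -3.68 and -3.81 in cKO. Its fitted change of 0.49 ± 0.04 therefore rests partly on values raised to the floor. miR-539-5p lay at the floor on 3 wild-type arrays and miR-665-3p on 1.

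On the Rtl1 side 9 of the 12 tested members were higher over both stages with the main scaling, with a median of 0.30, beside the same 46% and median of 0.17 over all tested miRNAs. mmu-miR-127-3p, which cleaves Rtl1 mRNA in placenta, read 1.59 and 1.65 in wild type against 1.88 and 1.77 in cKO at E16.5, and 1.56 and 1.59 against 2.00 and 1.97 at E17.5. The genotypes were apart at both stages, more widely at E17.5. Its change over both stages was 0.31 ± 0.03, or 1.24-fold (adjusted p 0.0010), and turned to -0.08 with the positive control probes as the scale.

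Both arms of miR-434 and of miR-136, also antisense to Rtl1, rose with the main scaling. miR-434-3p read 0.25 and 0.17 against 0.48 and 0.31 at E16.5, and 0.14 and 0.13 against 0.54 and 0.52 at E17.5. miR-136-5p read -0.79 and -0.87 against -0.47 and -0.55 at E16.5, and -0.50 and -0.42 against -0.02 and -0.12 at E17.5. In miR-434-3p every cKO array was above every wild-type array, while in miR-136-5p the cKO arrays at E16.5 overlapped the wild-type arrays at E17.5. Changes over both stages were 0.29 ± 0.04 and 0.35 ± 0.04 (adjusted p 0.0037 and 0.0012). miR-540-5p rose by 0.48 ± 0.06 (adjusted p 0.0018), the largest change on this side, and miR-337-3p by 0.23 ± 0.03.

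Both members of Rian rose with the main scaling. miR-370-3p read -1.55 and -1.52 in wild type against -1.17 and -1.17 in cKO at E16.5, and -1.73 and -1.75 against -1.29 and -1.41 at E17.5. It rose by 0.38 ± 0.03 (adjusted p 0.00058) with no overlap. miR-341-3p, found in rodents, read -2.23 and -2.25 against -2.05 and -2.26 at E16.5 and -2.51 and -2.54 against -2.11 and -2.13 at E17.5. Its genotypes overlapped at E16.5, and its change over both stages was 0.24 ± 0.05 (adjusted p 0.012).

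The 4 tested members that did not pass over both stages were miR-431-5p, miR-433-3p, miR-433-5p and miR-494-3p. mmu-miR-433-3p read -2.57 and -2.40 in wild type against -2.74 and -2.89 in cKO at E16.5, and -3.12 and -3.16 against -3.01 and -3.07 at E17.5. With the main scaling it was lower in cKO at E16.5 and slightly higher at E17.5, without overlap at either stage. Its change over both stages was -0.11 ± 0.06 (adjusted p 0.16) with the main scaling. It was below 0 under all 6 scalings and was called lower with 4 of them, those by quantile, by the median of detected probes, by the positive control probes and without scaling.

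mmu-miR-431-5p, known in muscle stem cells, read -0.54 and -0.53 in wild type against -0.68 and -0.78 in cKO at E16.5, and -0.73 and -0.74 against -0.55 and -0.59 at E17.5. The order of the genotypes was reversed between stages with the main scaling, whereas with the positive control probes as the scale the change at E17.5 was -0.33 for miR-431-5p and -0.39 for miR-433-3p. Its change over both stages was -0.02 ± 0.03 (adjusted p 0.63), and it was below 0 under all 6 scalings. The probe used for miR-433-5p lay at the floor on every array and gives no change.

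A comparison within the array needs no scaling. The median of the 41 members was on every array the level of miR-409-3p, whose own change over both stages was 0.29 with the main scaling. Taken against that median on the same array, miR-433-3p was lower in cKO by 0.40 on average (a difference of -0.50 at E16.5 and -0.29 at E17.5). miR-431-5p stood at -0.30 (-0.37 and -0.24), and each of its cKO arrays lay below each wild-type array. miR-376c-3p stood highest, at 0.44 (0.67 and 0.21). These are differences within the cluster and do not say which miRNA changed in amount.

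mmu-miR-494-3p read 2.02 and 2.12 in wild type against 2.55 and 2.25 in cKO at E16.5, and 1.96 and 1.97 against 1.86 and 1.92 at E17.5. With the main scaling it was higher in cKO at E16.5 and lower at E17.5, and the cKO pools at E16.5 differed by 0.30. The changes were 0.33 ± 0.10 at E16.5 (adjusted p 0.048) and -0.08 ± 0.10 at E17.5 (adjusted p 0.63).

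**Figure D2:**
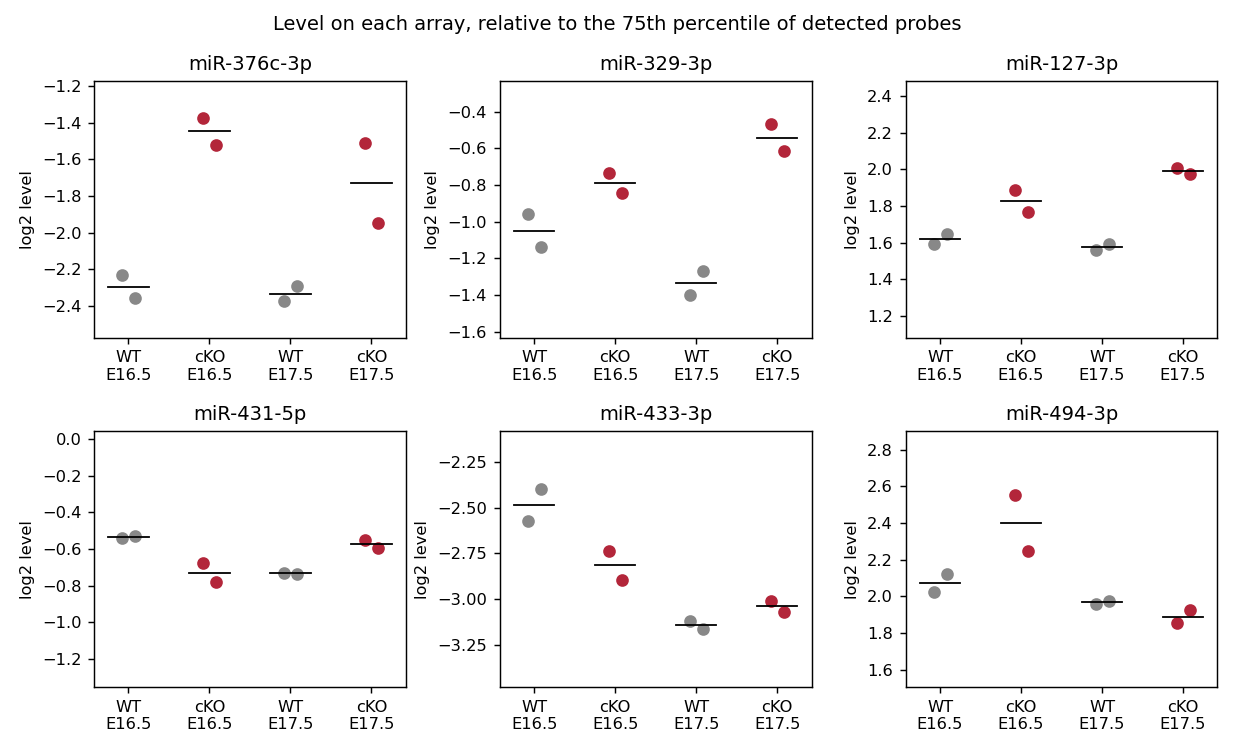
Log2 level (y axis, relative to the 75th percentile of detected probes) of 6 members on each of the 8 arrays, by group (x axis); grey points are wild type, red points cKO, and the line is the mean of 2 arrays. miR-376c-3p, miR-329-3p and miR-127-3p are higher in cKO at both stages with this scaling, while miR-431-5p and miR-433-3p are lower at E16.5 and higher at E17.5 (lower at E17.5 too with the positive control probes as the scale), and miR-494-3p shows the opposite order.

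Taken stage by stage with the main scaling, the cluster held more higher members at E17.5 than at E16.5. At E16.5, 25 of the 41 members were higher and 2 lower in cKO (35.8% and 15.1% of all tested miRNAs), the lower ones being miR-433-3p, which fell by 0.33 ± 0.08 (adjusted p 0.027), and miR-431-5p, which fell by 0.20 ± 0.04 (adjusted p 0.017). The members' median was 0.24, only 0.05 above that of all tested miRNAs, with 26 of 41 above it. Under the 6 scalings this distance at E16.5 ran from -0.0029 with the positive control probes, where 18 of 41 lay above, to 0.11 after quantile normalization. At E17.5, 37 members were higher and 0 lower, beside 36.1% higher among all tested. Their median was 0.41, 0.29 above that of all tested miRNAs, with 38 of 41 above it. Under the 6 scalings this distance at E17.5 ran from 0.19 to 0.30. Among the 261 miRNAs detected on all arrays the distance was 0.03 at E16.5, with 21 of 37 members above. At E17.5 it was 0.22, with 34 of 37 above. At either stage the scalings that divide an array by a single number move such a distance mainly through values at the floor.

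The E16.5 count fell to 13 without the first cKO pool of E16.5 and to 15 of 37 tested members when the 4 arrays of that stage were fitted alone. The E17.5 count was 37 when fitted alone and 25 to 38 with 1 array left out. With the 3 scalings under which no member was called higher over both stages, none was called higher at either stage.

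In 37 of the 41 members the fitted cKO change was larger at E17.5 than at E16.5 with the main scaling, and in 3 it was smaller. Without scaling these numbers were 21 and 19, and with the positive control probes 14 and 26, so the direction depended on the scale. Relative to all tested miRNAs the members' median difference was 0.07 to 0.13 under the 6 scalings. Except under quantile normalization, this distance too moves mainly through values at the floor. The test of that difference itself called 0 members higher and 0 lower, beside 0.779% of all tested miRNAs in each direction. At an unadjusted p under 0.05 were 19 members and 107 of all 385 miRNAs. The median difference was 0.15 for the members and 0.05 for all tested miRNAs. The largest positive differences were 0.53 ± 0.13 for miR-329-3p (adjusted p 0.10), 0.43 ± 0.12 for miR-433-3p (adjusted p 0.11) and 0.41 ± 0.07 for miR-543-3p (adjusted p 0.062). The lowest adjusted p among the members was 0.062, shared by miR-543-3p and miR-431-5p.

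**Figure D3:**
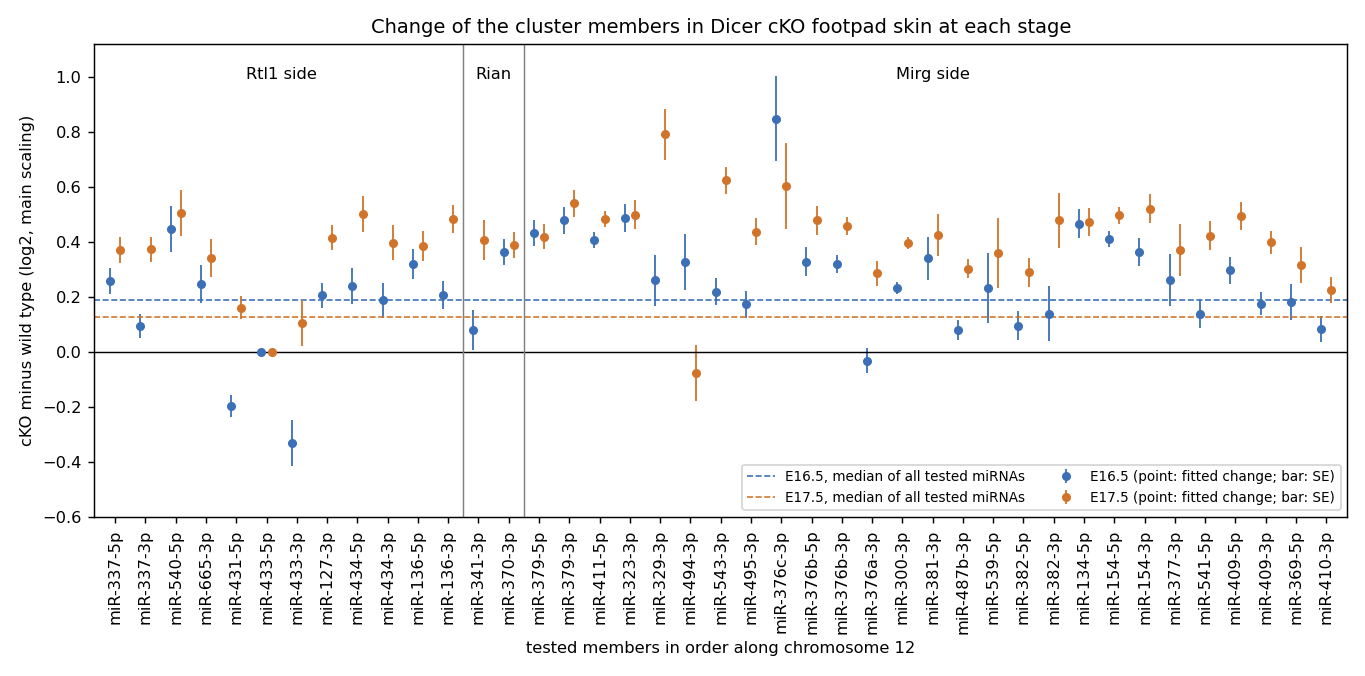
Fitted change in cKO against wild type (y axis, log2, main scaling) of the 41 tested members in their order along chromosome 12 (x axis), at E16.5 (blue) and E17.5 (orange). Bars are standard errors and dashed lines the medians of all tested miRNAs, 0.19 at E16.5 and 0.13 at E17.5. Most orange points lie above their line, miR-431-5p and miR-433-3p are the low blue points of the Rtl1 side, and miR-433-5p sits at 0 because its probe is at the floor; the positive control scaling moves the median of the members to -0.02 at E16.5 and -0.07 at E17.5.

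Few members passed between the stages in wild-type skin. There 4 of 41 were higher and 4 lower at E17.5 (4.16% and 10.6% of all tested miRNAs), with a median of -0.03. The increases were those of miR-136-5p (0.37 ± 0.06, adjusted p 0.019), miR-376b-5p (0.24 ± 0.05), miR-154-5p (0.18 ± 0.03) and miR-411-5p (0.14 ± 0.03). The decreases were those of miR-433-3p, which fell by 0.66 ± 0.08 (adjusted p 0.013), miR-543-3p, which fell by 0.35 ± 0.05, miR-431-5p and miR-409-3p. Leaving out the first or the second wild-type pool of E17.5 left 0 calls in either direction, and leaving out the second wild-type pool of E16.5 left 0 increases and 2 decreases. Without scaling 24 members were higher and 0 lower, beside 188 higher and 4 lower among all 385 tested miRNAs. With the 75th percentile of all probes 0 members passed either way, beside 13 higher and 4 lower among all tested.

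In cKO skin 16 members were higher and 2 lower at E17.5 (15.3% and 20.3% of all tested miRNAs), with a median of 0.16 where that of all tested miRNAs was 0. The largest increases were those of miR-136-5p (0.44 ± 0.06, adjusted p 0.012), miR-376b-5p (0.39 ± 0.05), miR-136-3p (0.35 ± 0.05) and miR-376a-3p (0.31 ± 0.05). miR-494-3p fell by 0.51 ± 0.10 (adjusted p 0.024) and miR-370-3p fell by 0.18 ± 0.05 (adjusted p 0.043). These counts hung on single pools. Without the first cKO pool of E17.5 no member was called in either direction, and without the second cKO pool of E16.5 the increases numbered 5. The increases numbered 0 with arrays scaled to the 75th percentile of all probes, 3 without scaling and 8 with the positive control probes. Among all 385 tested miRNAs they numbered 2, 23 and 27.

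**Figure D4:**
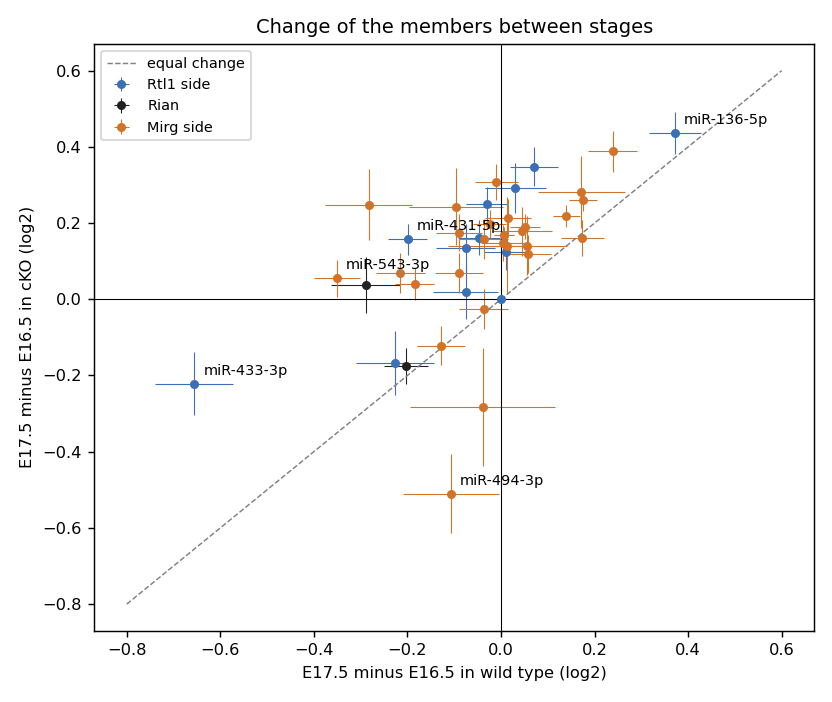
Change of each tested member from E16.5 to E17.5 in wild type (x axis) and in cKO (y axis), log2 with the main scaling. Points are fitted changes, bars standard errors, colours the part of the cluster, and the dashed line marks equal change. miR-136-5p rose in both genotypes (0.37 and 0.44), miR-433-3p fell by 0.66 in wild type, and miR-494-3p fell by 0.51 in cKO.

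The arms of a hairpin come from the same precursor, so their ratio within an array compares their levels independently of scaling and of how much precursor there was. For miR-433 and miR-136 the hairpins are shown with the mature arms in capitals.
miR-433: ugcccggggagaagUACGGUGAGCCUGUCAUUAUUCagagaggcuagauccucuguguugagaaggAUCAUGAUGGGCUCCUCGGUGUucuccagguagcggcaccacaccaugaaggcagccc
miR-136: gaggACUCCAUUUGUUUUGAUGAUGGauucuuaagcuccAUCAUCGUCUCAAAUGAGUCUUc

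The arms of miR-431 were not compared in this way, because miR-431-3p is not among the members. The same holds for miR-411 and miR-376a, whose other arms were also tested outside the members. With the main scaling miR-431-5p changed by -0.02 over both stages and miR-431-3p by 0.28. Among the members, both arms were tested in 9 hairpins. In none did the 5p to 3p ratio pass in cKO against wild type (two-sided exact permutation test over 4 against 4 arrays, 0 with an unadjusted p under 0.05). The smallest p that this design allows is 0.029, or 0.056 when arrays are exchanged within stages only, which can never pass 0.05. After adjustment over the 9 hairpins a lone hairpin at 0.029 could not pass either. The absence of adjusted calls therefore does not show that the ratios were unchanged. The mean log2 ratio changed by -0.12 for miR-382 (exact p 0.086, adjusted 0.34 over the 9), by -0.08 for miR-379 (exact p 0.11, adjusted 0.34) and by 0.11 for miR-409 (exact p 0.23, adjusted 0.41). Exchanged within stages, miR-409 and miR-434 reached the smallest p possible, with the ratio of each cKO array above those of the wild-type arrays of its stage. The change for miR-136 was 0.0075, with a standard deviation over arrays of 0.05 in cKO and 0.18 in wild type. For miR-433 the 5p arm lay at the floor throughout, so its change of 0.11 holds the 3p arm alone.

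**Figure D5:**
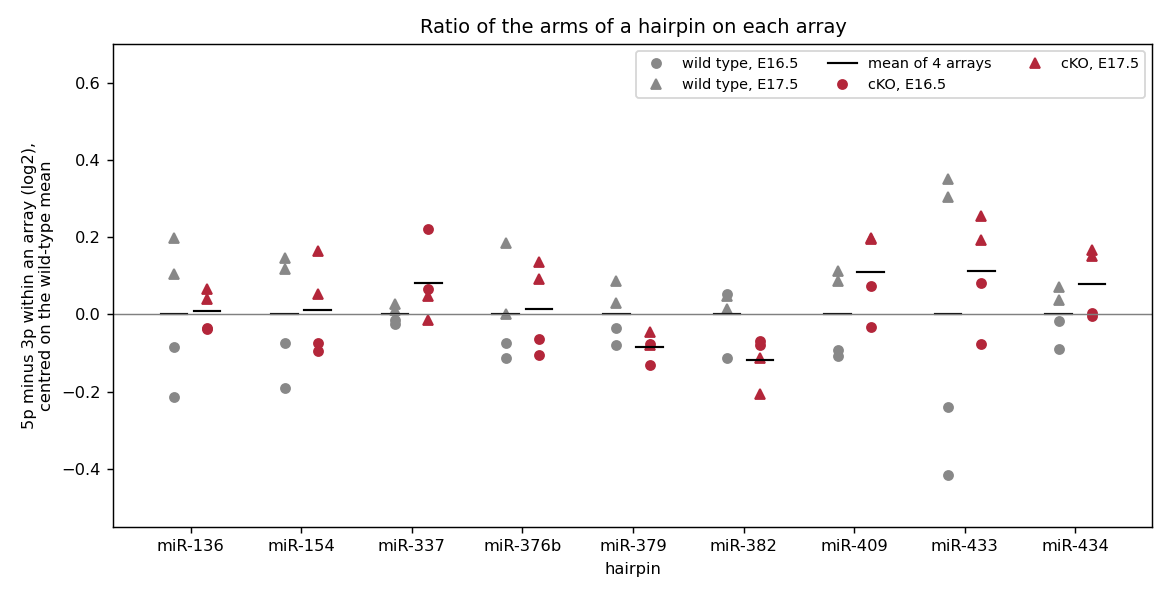
Log2 ratio of the 5p to the 3p arm within each array for the 9 hairpins with both arms among the tested members (x axis). On the y axis each hairpin is centred on its wild-type mean. Grey symbols are wild type, red cKO, circles E16.5, triangles E17.5 and lines means of 4 arrays. The cKO means differ from the wild-type means by -0.12 (miR-382) to 0.11 (miR-433, whose 5p arm lay at the floor). With the stages pooled, the arrays of the genotypes overlap in all 9 hairpins. Within each stage, every cKO array of miR-409 and of miR-434 lies above the wild-type arrays.

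Different probes of a member gave close values. Among 31 members with at least 2 probes detected on all arrays, the median gap between the lowest and highest probe's change over both stages was 0.03, and the largest was 0.08, for miR-376a-3p. Only miR-431-5p had probes of opposite sign, -0.02 and 0.03. Across the 39 tested members with a sequence, the Spearman correlation of the change with GC content of the mature miRNA was -0.09, a description over members that share the same arrays.

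Most markers of mesenchyme rose with the cluster under the main scaling, 7 of 9 with a median of 0.34. miR-143-3p (0.01) and miR-10b-5p (0.06) did not pass. After quantile normalization 4 of the 9 were higher, beside 151 of all 385 tested miRNAs. The median of the 9, 0.11, equalled that of all tested miRNAs. The members then had 34 higher and a median of 0.31. The median level of the 41 members minus that of the 9 mesenchyme miRNAs was -0.80 and -0.83 in wild type against -0.71 and -0.73 in cKO at E16.5, and -1.12 and -1.25 against -1.02 and -1.01 at E17.5. No scaling enters this difference. Taken against the epithelial markers, which were themselves lower in cKO, it shifted far more. It was then -0.55 and -0.57 in wild type against 1.89 and 1.95 in cKO at E16.5. Taken against all 385 tested miRNAs it was 1.0375 and 1.0170 in wild type against 1.1105 and 1.2002 in cKO at E16.5. At E17.5 it was 0.9930 and 0.9485 against 1.3926 and 1.3754. The shift of these median levels against mesenchyme was thus close to that against all tested miRNAs at E16.5 and smaller at E17.5. On every array the middle member was miR-409-3p, so these differences follow the level of that single miRNA. With the main scaling the median change was 0.24 for the members and 0.28 for the mesenchyme list at E16.5. At E17.5 these were 0.41 and 0.41, and over both stages 0.31 and 0.34, so by this measure the members did not rise beyond mesenchyme. The summed level of the members was 25.3 to 25.8 times the 75th percentile in wild type and 29.3 to 32.5 in cKO with the main scaling, and that of the mesenchyme list was 46.9 to 53.7 and 61.6 to 67.0. The part of the tissue's cell makeup in the cluster's change was not tested.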

How the data were processed

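Small-RNA-containing total RNA of 8 footpad pools was labelled with Cy3 and hybridised to single-colour Agilent mouse miRNA arrays. Per the file headers, the authors' image extraction used version 11.5.1.1 of Agilent Feature Extraction, and the deposited files give a background-subtracted fluorescence intensity per spot in linear units, unscaled between arrays. The deposited value table equalled these intensities within 0.02 in 100% of spots above 0.

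Spots without outlier marks were averaged per probe. Arrays were scaled to a common 75th percentile over the 474 probes detected on all of them (over a share of 0.5 of spots well above background). Values were then raised to a floor (the 5th percentile of detected probes, median over arrays) and taken as log2. The brightest probe stood for each miRNA. The 385 miRNAs detected on both arrays of a group were fitted with limma 3.58.1 (R 4.3.3; 4 group means, trend), with Benjamini-Hochberg adjustment within each of 6 contrasts at 0.05, after the fit was tested on simulated data. The number of arrays limits the precision. Same-numbered replicates, which share a slide row, were not treated as pairs (correlations of deviations -0.14 to 0.28, over 0.1 in 5 of 6 comparisons).

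Members named in the text were the largest changes per contrast, members not passing, partly detected members, arm pairs and well-studied members. The members, marker lists and position groups were chosen with earlier results of these data known. Alternatives covered scaling, background, value source, filter, probe, floor, outlier marks, trend, pairing, samples fitted and each array left out. RefSeq sequences (GRCm38.p6) were read for 43 members.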

Additional observations from a re-analysis of the deposited data

Results flagged for a closer look

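With the main scaling the arrays of 3 members moved in opposite directions at the stages, with no overlap between genotypes at either. For miR-431-5p the cKO arrays were lower at E16.5 and higher at E17.5, and the difference of the cKO effect (E17.5 minus E16.5) was 0.36 ± 0.06 (limma, adjusted p 0.062). For miR-433-3p, in the same order, it was 0.43 ± 0.12 (adjusted p 0.11). For miR-494-3p, higher at E16.5 and lower at E17.5, it was -0.40 ± 0.15 (adjusted p 0.15). None of the 3 differences passed the adjusted threshold with the main scaling. With the positive control probes as the scale the E17.5 changes of miR-431-5p and miR-433-3p were negative as well, -0.33 and -0.39. For miR-431-5p the E17.5 change was also -0.17 with the 75th percentile of all probes and -0.23 without scaling. Taken against the median member of the same array, where no scaling enters, both stood lower in cKO at both stages. The differences at E16.5 and E17.5 were -0.37 and -0.24 for miR-431-5p and -0.50 and -0.29 for miR-433-3p.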

How the results depend on the processing

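Counts are of members unless said otherwise, main value first. The arm ratios had 0 calls under every alternative run, where the adjusted threshold over the 9 hairpins was out of reach for a lone hairpin. Among values of the members picked by the naming rule, 1137 kept their direction and side of the threshold, 240 lost their call, 12 gained one and 54 reversed, of which 24 with the positive control probes as the scale, 16 without scaling, 12 with the 75th percentile of all probes and 2 with normexp; the cause was not tested.

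Higher in cKO over both stages (37): 0 with the 75th percentile of all probes, without scaling and with control probes. Lower (0): 1 with quantile, 2 with the median of detected probes, 1 without scaling, 8 with control probes (169 of all 385 tested miRNAs). Higher at E16.5 (25): 0 with the same 3 scalings, 15 when only that stage's arrays were fitted; lower (2): 0 with all probes, without scaling and with normexp, 1 with that stage alone. Higher at E17.5 (37): 0 with the same 3 scalings. Lower at E17.5 (0): 4 with control probes (192 of all 385 tested miRNAs). A larger effect at E17.5 (0): 2 with quantile, 1 with normexp, 4 with the mean over probes; a smaller one (0): 1 with outlier spots kept. Higher at E17.5 in wild type (4): 0 with all probes, 24 without scaling, 10 with control probes, 2 with normexp, with detection on all arrays, without a filter and with outlier spots kept, 1 with the mean over probes, 0 with wild type alone. Lower there (4): 2 with the median of detected probes, 0 with all probes and without scaling, 1 with control probes. It was 13 with normexp (143 of all 385 tested miRNAs), 8 with detection on all arrays, 7 without a trend, 0 with wild type alone. Higher at E17.5 in cKO (16): 0 with all probes, 3 without scaling, 8 with control probes, 10 with normexp, 6 with cKO alone. Lower there (2): 1 with quantile, with control probes and with the replicate block, 0 with all probes and without scaling. With normexp it was 6 (140 of all 385 tested miRNAs).

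Leaving out each array in turn gave these ranges: 33 to 37 higher over both stages, 13 to 23 higher and 1 to 2 lower at E16.5, 25 to 38 higher at E17.5, 0 to 1 for a larger effect at E17.5, 0 to 3 higher and 0 to 7 lower in wild type between stages, and 0 to 13 higher and 0 to 5 lower in cKO between stages. The lone array left in a group was assumed to vary like the other groups. A replicate block, which is also the slide row, left the counts of cKO against wild type as they were (37 higher over both stages). Between stages it gave 3 higher and 3 lower in wild type, and 15 higher and 1 lower in cKO. Correlations of the deviations of same-numbered arrays ran from -0.14 to 0.28, and the labels do not say that a number marks a shared litter or day.

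Reversed over both stages with control probes: miR-136-5p -0.034, miR-136-3p -0.041, miR-409-3p -0.10, miR-376a-3p -0.26, miR-494-3p -0.26, miR-370-3p -0.011, miR-539-5p -0.015, miR-665-3p -0.089, miR-337-3p -0.15, miR-337-5p -0.073, miR-369-5p -0.14, miR-382-5p -0.19, miR-382-3p -0.078, miR-434-3p -0.094, miR-434-5p -0.015, miR-127-3p -0.076, miR-341-3p -0.14, miR-495-3p -0.081, miR-381-3p -0.0045 and miR-410-3p -0.23. Outside the naming rule, with control probes miR-300-3p was -0.072, miR-377-3p -0.071, miR-487b-3p -0.19 and miR-541-5p -0.11, without scaling miR-487b-3p was -0.11 and miR-541-5p -0.026, and with all probes miR-487b-3p was -0.088. miR-494-3p, not called in the main analysis, was -0.18 without scaling and -0.16 with all probes. Without scaling: miR-409-3p -0.020, miR-376a-3p -0.18, miR-539-5p -0.0048, miR-665-3p -0.074, miR-337-3p -0.073, miR-369-5p -0.057, miR-382-5p -0.11, miR-434-3p -0.014, miR-341-3p -0.063, miR-495-3p -0.0011 and miR-410-3p -0.15. With the 75th percentile of all probes: miR-376a-3p -0.15, miR-665-3p -0.017, miR-337-3p -0.046, miR-369-5p -0.031, miR-382-5p -0.088, miR-341-3p -0.037 and miR-410-3p -0.13. At E17.5 in cKO against wild type, miR-431-5p was -0.17 with all probes, -0.23 without scaling and -0.33 with control probes, and miR-433-3p was -0.39 with control probes. Between stages in wild type, miR-543-3p was 0.025 with all probes and 0.26 without scaling, miR-431-5p was 0.18, 0.41 and (control probes) 0.035, miR-409-3p was 0.19, 0.42 and 0.050, and miR-376b-5p was -0.15 with normexp. Between stages in cKO, miR-376b-5p was -0.0061 with normexp, and miR-370-3p was 0.097 with all probes and 0.27 without scaling.

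The arrays set the limits: dim members at the floor have understated changes, and detection was lowest on the second pools of E16.5.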

Other observations

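The array held 63 further mature miRNAs of the same domain that were not among the members, and 52 of them were detected on no array. Of the 10 tested, 8 were higher and 0 lower in cKO over both stages with the main scaling, with a median of 0.28, beside 46% higher, 14.5% lower and a median of 0.17 over all tested miRNAs. After quantile normalization 5 were higher, and with the median of detected probes 4, beside 151 and 129 of all 385 tested miRNAs. With the 75th percentile of all probes or no scaling 0 were higher. With the positive control probes 2 were lower, beside 169 of all 385, and the median of the 10 was -0.06. miR-411-3p, the partner arm of miR-411-5p, rose by 0.40 ± 0.03 (limma, adjusted p 0.00022), and miR-299b-5p by 0.35 ± 0.03 (adjusted p 0.00045). miR-431-3p, the partner arm of miR-431-5p, had a change of 0.28 ± 0.09 (adjusted p 0.049), where the 5p arm stood at -0.02. miR-3072-5p did not pass over both stages (0.14 ± 0.07, adjusted p 0.12) and fell by 0.58 ± 0.09 from E16.5 to E17.5 in cKO (adjusted p 0.017).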
